A study of Mus musculus with 14 samples.

Results

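The genes described here are 9 mouse genes of MHC class I antigen presentation, chosen by symbol. They encode beta-2-microglobulin (B2m), 3 class I heavy chains (H2-D1, H2-K1 and H2-T23), both chains of the peptide transporter (Tap1 and Tap2), tapasin (Tapbp) and 2 immunoproteasome subunits (Psmb8 and Psmb9). Of the 13180 genes used, 7 of these 9 have a row of their own. H2-D1 shares a row with H2-L, and Tapbp shares a row with Rgl2 and Zbtb22. These 2 merged rows are given as such and stay outside the counts of the 7 genes.

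Class I molecules carry short peptides from inside a cell to its surface, where cytotoxic T cells and natural killer cells read them. Proteasomes cut the peptides, the Tap1 and Tap2 transporter pumps them into the endoplasmic reticulum, and tapasin helps to load them onto a heavy chain paired with beta-2-microglobulin. Embryonic stem cells and neural cells are known for low class I expression, which interferon raises in many cell types.

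Poly(A) RNA was sequenced from 4 populations of mouse cells that carry a green fluorescent protein (GFP) reporter of Oct4, a transcription factor of pluripotent cells. DR-ESC are the cells that were still GFP-positive on day 8 of neural differentiation, sorted and then grown again in embryonic stem cell medium; for how long, and whether on feeder cells, is not stated. NPC(GFP-) are the GFP-negative cells sorted from the day 8 culture, the neural progenitors. Oct4-GFP-H-ESC are cells of the undifferentiated line sorted for a high GFP signal. Oct4-GFP-ESC are the undifferentiated line itself, kept in serum on fibroblast feeder cells that mitomycin C stops from dividing, with 10 ng/ml of the cytokine LIF. The same dose of LIF is given for Oct4-GFP-H-ESC. All 4 populations come from the same reporter line, and no other allele or agent is named for them. Each population has 1 library, so no difference can be set against a spread between replicates, and neither tests nor errors are given. The 10 ChIP and input samples of the series were not analysed here.

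Values are FPKM (fragments scaled for transcript length and for the mapped fragments of the library), a scale per length on which levels of different genes can be compared within a library. Read depth is unknown, and the sum of FPKM ran from 345804 in NPC(GFP-) to 687303 in Oct4-GFP-ESC. Each ratio is log2((FPKM + 1) ratio), computed where either library of the pair has 1 FPKM or more, and a gene is called higher or lower from 2-fold on this scale, on which changes of low genes look smaller than they are. The 6 comparisons reuse the 4 libraries and are not independent of each other. The summed level of 10 pluripotency markers was 2194 FPKM in DR-ESC, 125 in NPC(GFP-), 2909 in Oct4-GFP-H-ESC and 4443 in Oct4-GFP-ESC. For 10 neural progenitor markers the sums were 85.9, 633, 21.1 and 25.4 FPKM in the same order of libraries. In bulk RNA, fewer cells that express a gene and less of its RNA per cell cannot be told apart.

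RNA of fibroblast markers differed between the libraries, and from which cells it came was not tested. Of 20 fibroblast markers 18 have a row, and their summed level was 204 FPKM in DR-ESC, 77.0 in NPC(GFP-), 722 in Oct4-GFP-H-ESC and 756 in Oct4-GFP-ESC. Fn1, the gene of fibronectin, made up 184 FPKM of the sum in DR-ESC, 32.0 in NPC(GFP-), 279 in Oct4-GFP-H-ESC and 260 in Oct4-GFP-ESC. Without it the other 17 summed to 20.1 FPKM in DR-ESC, 45.0 in NPC(GFP-), 444 in Oct4-GFP-H-ESC and 496 in Oct4-GFP-ESC. Of the 18, 8 reached 1 FPKM in DR-ESC and 9 in NPC(GFP-), against all 18 in Oct4-GFP-H-ESC and in Oct4-GFP-ESC. Col1a1, a fibrillar collagen, had 2.03 FPKM in DR-ESC, 2.06 in NPC(GFP-) and 92.4 in both other libraries, and S100a4 was listed at 0 in DR-ESC and in NPC(GFP-). Of 12 blood and macrophage markers 4 have a row, with sums of 14.5, 1.77, 63.0 and 36.0 FPKM in DR-ESC, NPC(GFP-), Oct4-GFP-H-ESC and Oct4-GFP-ESC. Lyz2, a lysozyme of macrophages, was listed at 0 in DR-ESC and in NPC(GFP-), while 3 of the 4 reached 1 FPKM in DR-ESC and 1 in NPC(GFP-). Cd68 had 5.53 FPKM in DR-ESC, 1.58 in NPC(GFP-), 10.9 in Oct4-GFP-H-ESC and 6.77 in Oct4-GFP-ESC. Itgam was highest in DR-ESC, with 1.98 FPKM there, 0.0392 in NPC(GFP-), 0.611 in Oct4-GFP-H-ESC and 0.718 in Oct4-GFP-ESC. Of 8 endothelial markers 5 have a row, with sums of 46.9, 11.4, 48.7 and 53.9 FPKM in that order. Fibroblasts, macrophages and endothelial cells express class I genes as well.

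B2m lies on chromosome 2 (122147687 to 122153082), and the other 8 genes lie in the MHC on chromosome 17, between Tapbp at 33919478 and H2-T23, which ends at 36032701 (all in GRCm38.p6). The letters of 4 elements known from class I promoters were searched on both strands in the 250 bases before each RefSeq start site (GRCm38.p6). They are an NF-kB element (GGGNNTTNCC), an interferon response element of the IRF factors (AANNGAAA), the X2 box of ATF and CREB factors (TGACG) and the Y box of NF-Y (ATTGG). Of 32851 windows of this length, 4.11% hold the NF-kB letters, 21.3% the IRF letters, 17.8% those of X2 and 33.8% those of Y, and 24 windows (0.0731%) hold all 4. Windows were found for 8 of the 9 genes, and those of B2m, H2-D1 and H2-K1 are among the 24. The windows of B2m (chr2:122147437-122147686, plus strand) and H2-D1 (chr17:35262844-35263093, plus strand) are shown because these 2 rows are set side by side below, with the matches in capitals.

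B2m: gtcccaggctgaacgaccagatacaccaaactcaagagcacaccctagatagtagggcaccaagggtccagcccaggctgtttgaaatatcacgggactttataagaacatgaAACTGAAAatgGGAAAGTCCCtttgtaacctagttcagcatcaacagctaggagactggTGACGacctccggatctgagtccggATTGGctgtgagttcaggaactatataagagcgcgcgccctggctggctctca

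H2-D1: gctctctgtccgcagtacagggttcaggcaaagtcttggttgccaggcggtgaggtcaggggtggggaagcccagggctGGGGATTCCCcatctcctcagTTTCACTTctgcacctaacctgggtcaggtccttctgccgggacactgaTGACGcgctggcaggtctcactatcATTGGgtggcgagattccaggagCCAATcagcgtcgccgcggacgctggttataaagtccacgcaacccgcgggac

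The matches in these windows do not overlap each other. In B2m the IRF match begins 137 bases before the start site, the NF-kB match 126, the X2 match 78 and the Y match 53. In H2-D1 the order of the first pair is turned, with NF-kB at 171 and IRF at 150, followed by X2 at 101 and Y at 76 and 53. A pair of stretches of 30 bases compares H2-K1 (minus strand) with H2-D1 (plus strand), which are both classical heavy chain genes. H2-D1 has no level of its own, and H2-K1 clearly exceeded the merged row of H2-D1 in DR-ESC and NPC(GFP-) only. The first stretch runs from the NF-kB match through the IRF match (chr17:34000429-34000458 and chr17:35262923-35262952) and has the same letter at 29 of 30 positions.

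H2-K1, NF-kB to IRF: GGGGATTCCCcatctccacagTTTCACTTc

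H2-D1, NF-kB to IRF: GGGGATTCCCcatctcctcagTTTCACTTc

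The second stretch runs from X2 to Y (chr17:34000359-34000388 and chr17:35262993-35263022) and has the same letter at 23 of 30 positions, with the X2 and Y letters at the same spacing in both genes.

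H2-K1, X2 to Y: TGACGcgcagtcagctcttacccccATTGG

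H2-D1, X2 to Y: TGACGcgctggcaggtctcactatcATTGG

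The remaining windows hold fewer of the elements. H2-T23 holds 2 IRF matches and 1 Y match, Tapbp 2 Y matches, and Psmb8 none of the 4. Tap1 and Psmb9 are read in opposite directions from the 225 bases that separate them (chr17:34187331-34187555), which are shown on the strand of Tap1 because both genes start there. This stretch holds 1 X2 match and 1 Y match, a pair found together in 6.12% of windows, and the Y letters lie 8 bases before the Psmb9 start and 222 before that of Tap1. These are matches of letters, a description and not evidence that a factor binds.

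Psmb9 to Tap1: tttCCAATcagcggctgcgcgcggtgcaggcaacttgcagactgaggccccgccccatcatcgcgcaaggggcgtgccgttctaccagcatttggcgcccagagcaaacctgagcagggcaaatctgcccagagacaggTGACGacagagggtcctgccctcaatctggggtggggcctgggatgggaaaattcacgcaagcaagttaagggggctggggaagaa

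**Figure D1:**
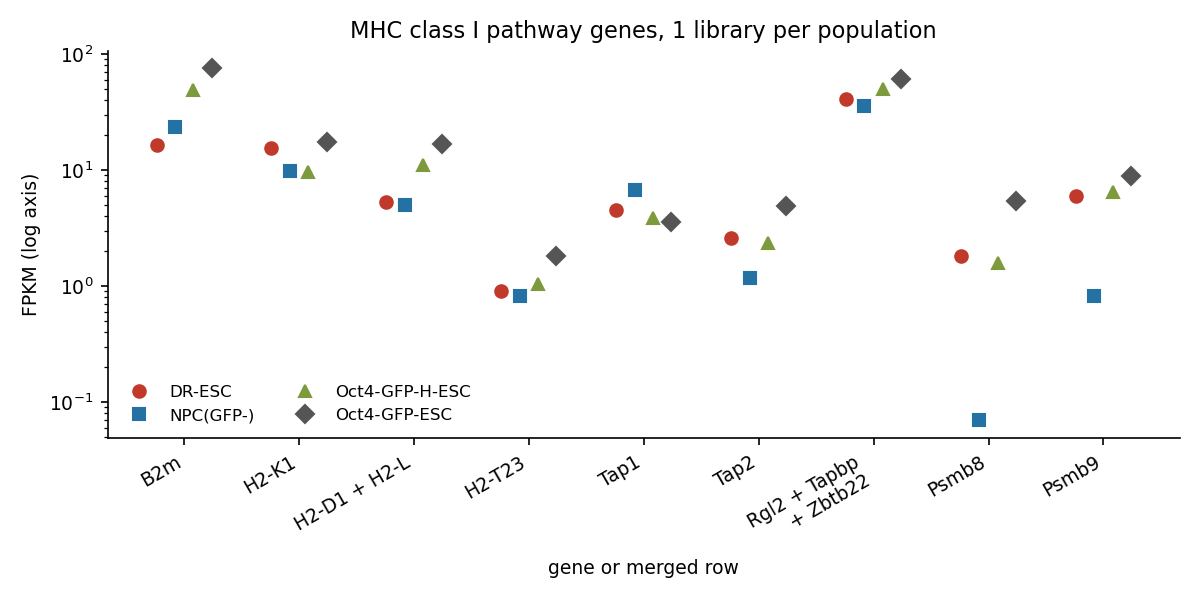
FPKM (log axis) of the 7 genes and the 2 merged rows in the 4 libraries, 1 point per library. The Oct4-GFP-ESC point is the highest for every gene and merged row except Tap1, whose highest point is NPC(GFP-) at 6.74 FPKM, and Psmb8 in NPC(GFP-) is the lowest point of all at 0.0692 FPKM.

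B2m encodes the light chain that every classical class I molecule needs. It had 16.3 FPKM in DR-ESC, 23.7 in NPC(GFP-), 48.9 in Oct4-GFP-H-ESC and 75.3 in Oct4-GFP-ESC. It was the most abundant of the 7 genes in each library, and was lowest in DR-ESC. Among all genes it ranked at percentile 70.6 in DR-ESC, 78.7 in NPC(GFP-), 89.2 in Oct4-GFP-H-ESC and 90.0 in Oct4-GFP-ESC. Its log2 ratio was -2.14 in DR-ESC relative to Oct4-GFP-ESC and -1.53 in DR-ESC relative to Oct4-GFP-H-ESC. It stayed beyond the 2-fold size under each scaling tried, from -1.38 to -1.71 in the first of these comparisons and from -1.40 to -1.48 in the second. NPC(GFP-) relative to Oct4-GFP-ESC gave -1.63, which was -0.66 with equal sums and -0.89 with the abundance trend removed. B2m and the sum of the fibroblast markers were both lower in DR-ESC and in NPC(GFP-) than in the undifferentiated libraries. The part of fibroblasts in the B2m difference was not tested.

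H2-K1 and H2-D1 encode the classical heavy chains that present peptides to cytotoxic T cells. H2-K1 (33996012 to 34000619) had 15.5 FPKM in DR-ESC, 9.79 in NPC(GFP-), 9.61 in Oct4-GFP-H-ESC and 17.3 in Oct4-GFP-ESC. It was thus near level between DR-ESC and Oct4-GFP-ESC, and lower in both other libraries. Its log2 ratio of -0.15 in DR-ESC relative to Oct4-GFP-ESC became 0.28 with the median ratio set to 0 or with upper-quartile scaling, 0.59 with equal sums and 0.21 with the abundance trend removed. The merged row of H2-D1 (35263094 to 35267497) and H2-L had 5.34 FPKM in DR-ESC, 5.01 in NPC(GFP-), 10.98 in Oct4-GFP-H-ESC and 16.7 in Oct4-GFP-ESC. Its log2 ratio was -1.48 in DR-ESC and -1.56 in NPC(GFP-) relative to Oct4-GFP-ESC, and -0.92 in DR-ESC relative to Oct4-GFP-H-ESC. This row was therefore lower in the same 2 libraries as B2m and the sum of the fibroblast markers, and the part of fibroblasts was not tested.

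Ratios between genes of the same library do not change when that library is multiplied by a factor. H2-K1 was 95.1% of B2m in DR-ESC, 41.3% in NPC(GFP-), 19.6% in Oct4-GFP-H-ESC and 23.01% in Oct4-GFP-ESC. The H2-D1 and H2-L row was 32.7% of B2m in DR-ESC, 21.2% in NPC(GFP-), 22.4% in Oct4-GFP-H-ESC and 22.2% in Oct4-GFP-ESC. H2-K1 was 2.91 times the H2-D1 and H2-L row in DR-ESC and 1.95 times in NPC(GFP-), against 0.876 times in Oct4-GFP-H-ESC and 1.04 times in Oct4-GFP-ESC. H2-K1 thus exceeded the H2-D1 and H2-L row clearly in DR-ESC and NPC(GFP-) and was about level with it in the undifferentiated line. Heavy chain genes are near-identical over long stretches, and reads may have been split between them.

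**Figure D2:**
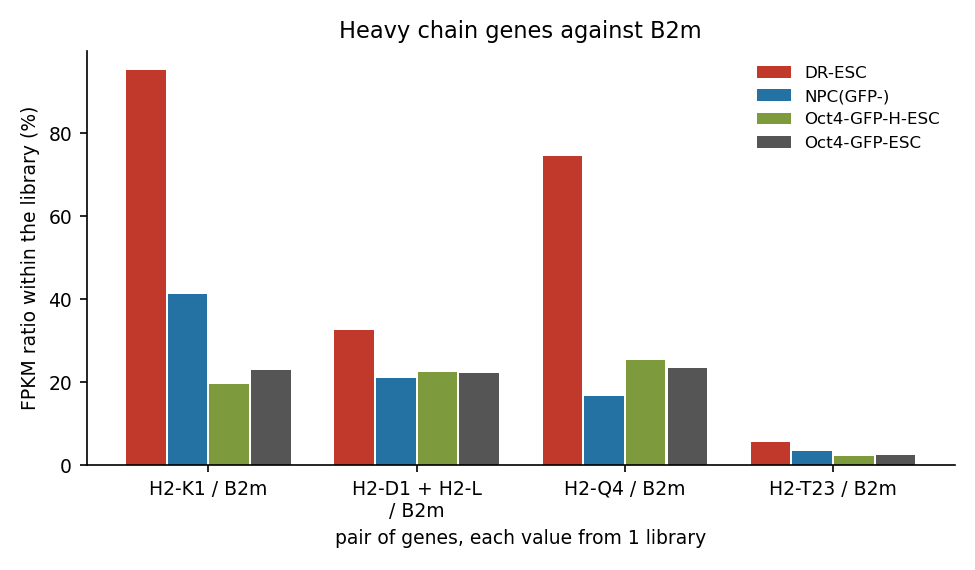
FPKM of a heavy chain gene as a percent of B2m in the same library, for H2-K1, the merged row of H2-D1 and H2-L, H2-Q4 and H2-T23; each bar is 1 library and there are no error bars. H2-K1 and H2-Q4 reach 95.1% and 74.5% of B2m in DR-ESC, while the H2-D1 and H2-L row lies between 21.2% and 32.7% in all 4 libraries.

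H2-T23 encodes the Qa-1 heavy chain, a ligand of inhibitory receptors on natural killer cells. It had 0.910 FPKM in DR-ESC, 0.819 in NPC(GFP-), 1.04 in Oct4-GFP-H-ESC and 1.83 in Oct4-GFP-ESC. It was low in every library, at percentile 10.8 to 20.1 of all genes, and its log2 ratio stayed below the 2-fold size in the 5 comparisons that could score it (lowest -0.64, NPC(GFP-) relative to Oct4-GFP-ESC, or -1.07 with a pseudocount of 0.1). DR-ESC relative to NPC(GFP-) could not score it, because it was under 1 FPKM in both.

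Among other class I heavy chains, 8 of 25 listed genes have a row, and they went different ways in DR-ESC. H2-Q4 had 12.2 FPKM in DR-ESC, 3.94 in NPC(GFP-), 12.5 in Oct4-GFP-H-ESC and 17.7 in Oct4-GFP-ESC, near the level of H2-K1 except in NPC(GFP-). H2-M5 had 5.39 FPKM in DR-ESC, 1.75 in NPC(GFP-), 16.3 in Oct4-GFP-H-ESC and 14.5 in Oct4-GFP-ESC. H2-Bl had 7.97 FPKM in DR-ESC, 1.24 in NPC(GFP-), 2.80 in Oct4-GFP-H-ESC and 5.22 in Oct4-GFP-ESC. H2-M5 was the only one of 8 that was lower in DR-ESC relative to Oct4-GFP-ESC (-1.27), where 12.2% of all genes were. Of the 8, 0 were higher, where 2.95% of all genes were. With equal sums, upper-quartile scaling or the median ratio set to 0, none of the 8 was lower, and with equal sums 1 was higher. Against Oct4-GFP-H-ESC, H2-Bl was higher (1.24) and H2-M5 lower (-1.44) in DR-ESC, of 7 compared, where 3.65% of all genes were higher and 3.91% lower.

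In NPC(GFP-) these heavy chains were mostly lower. Of 8 compared with Oct4-GFP-ESC, 7 were lower in NPC(GFP-) and Cd1d1, which presents lipids, was higher (4.88 FPKM in NPC(GFP-) against 1.51 in Oct4-GFP-ESC). In this comparison 25.6% of all genes were lower and 15.7% higher. H2-M5 led with -2.49, followed by H2-Q4 with -1.92 and H2-Bl with -1.47. With equal sums 3 of the 8 were lower, and with the abundance trend removed 5 were. The merged row of H2-T22 and H2-T9 had 4.61 FPKM in DR-ESC, 0.811 in NPC(GFP-), 2.98 in Oct4-GFP-H-ESC and 5.49 in Oct4-GFP-ESC.

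Tap1 and Tap2 encode the chains of a transporter that works as a heterodimer. Tap1 had 4.56 FPKM in DR-ESC, 6.74 in NPC(GFP-), 3.85 in Oct4-GFP-H-ESC and 3.57 in Oct4-GFP-ESC. It was highest in NPC(GFP-) and lowest in Oct4-GFP-ESC, whereas each other gene and merged row was highest in Oct4-GFP-ESC as deposited. That contrast depended on scaling. In DR-ESC relative to Oct4-GFP-ESC, H2-K1 turned positive under each other scaling (0.21 to 0.59), and Psmb9 did with equal sums (0.19). The order of the 4 libraries for Tap1 held under each alternative that could score all of its comparisons. Its log2 ratio in NPC(GFP-) relative to Oct4-GFP-ESC was 0.76 as deposited. It passed the 2-fold size with equal sums (1.57), upper-quartile scaling (1.09) and the median ratio set to 0 (1.15). Tap2 had 2.61 FPKM in DR-ESC, 1.17 in NPC(GFP-), 2.37 in Oct4-GFP-H-ESC and 4.90 in Oct4-GFP-ESC. It was lowest in NPC(GFP-), where Tap1 was highest. Its log2 ratio in NPC(GFP-) relative to Oct4-GFP-ESC was -1.45, or -0.76 with equal sums. Tap1 was 1.75 times Tap2 in DR-ESC, 5.77 times in NPC(GFP-), 1.62 times in Oct4-GFP-H-ESC and 0.728 times in Oct4-GFP-ESC.

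Tapbp encodes tapasin, which bridges the transporter and the heavy chain. Its merged row with Rgl2 and Zbtb22 had 41.0 FPKM in DR-ESC, 35.4 in NPC(GFP-), 50.4 in Oct4-GFP-H-ESC and 61.3 in Oct4-GFP-ESC. It differed by less than 2-fold in each comparison, with a log2 ratio of -0.57 in DR-ESC relative to Oct4-GFP-ESC, and how much of it is tapasin cannot be told apart from the neighbouring genes.

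Genes of proteins that fold class I molecules and trim their peptides were mostly within 2-fold. Of 13 listed genes 11 have a row. Calr (calreticulin) had 260 FPKM in DR-ESC, 357 in NPC(GFP-), 450 in Oct4-GFP-H-ESC and 551 in Oct4-GFP-ESC. Canx (calnexin) had 129 FPKM in DR-ESC, 122 in NPC(GFP-), 126 in Oct4-GFP-H-ESC and 130 in Oct4-GFP-ESC. These chaperones were far above the heavy chains they help to fold. Pdia3, an oxidoreductase of the loading complex, had 131 FPKM in DR-ESC, 178 in NPC(GFP-), 160 in Oct4-GFP-H-ESC and 204 in Oct4-GFP-ESC. Erap1, which trims peptides in the endoplasmic reticulum, had 1.92 FPKM in DR-ESC, 1.54 in NPC(GFP-), 0.939 in Oct4-GFP-H-ESC and 1.78 in Oct4-GFP-ESC. The merged row of Cd27 and Tapbpl, a tapasin relative, had 1.70 FPKM in DR-ESC, 0.543 in NPC(GFP-), 1.53 in Oct4-GFP-H-ESC and 2.09 in Oct4-GFP-ESC.

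In DR-ESC relative to Oct4-GFP-ESC, 1 of these 11 genes was higher (Lnpep, 1.46) and 1 lower (Calr, -1.08), with a median of -0.21. In this comparison 2.95% of all genes were higher and 12.2% lower. Lnpep encodes an aminopeptidase of endosomes and had 9.53 FPKM in DR-ESC, 6.67 in NPC(GFP-), 5.36 in Oct4-GFP-H-ESC and 2.83 in Oct4-GFP-ESC. Lnpep was also the only one past the size in NPC(GFP-) relative to Oct4-GFP-ESC (1.00), where 15.7% of all genes were higher and 25.6% lower. The median there was -0.35, and with equal sums 2 of the 11 were higher. Both medians turned positive under the other scalings, from 0.20 to 0.54 in the first comparison and from 0.05 to 0.75 in the second, and Calr was then no longer past the size. Each of the other 4 comparisons had 0 of 11 higher and 0 lower, except that 1 was higher in Oct4-GFP-H-ESC relative to Oct4-GFP-ESC with equal sums, upper-quartile scaling or the median ratio set to 0. In that comparison 0.983% of all genes were higher and 2.67% lower. The shares were 3.65% and 3.91% in DR-ESC relative to Oct4-GFP-H-ESC, and 11.6% and 14.2% in DR-ESC relative to NPC(GFP-). In NPC(GFP-) relative to Oct4-GFP-H-ESC they were 18.5% and 16.2%.

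Psmb8 and Psmb9 encode immunoproteasome subunits, which replace the constitutive subunits Psmb5 and Psmb6 and favour peptides that fit class I molecules. Psmb8 had 1.81 FPKM in DR-ESC, 0.0692 in NPC(GFP-), 1.59 in Oct4-GFP-H-ESC and 5.42 in Oct4-GFP-ESC. It was near 0 in NPC(GFP-), at percentile 3.73 of all genes, against 39.4 in Oct4-GFP-ESC. Psmb9 had 6.00 FPKM in DR-ESC, 0.825 in NPC(GFP-), 6.46 in Oct4-GFP-H-ESC and 8.93 in Oct4-GFP-ESC. It was near level in DR-ESC and Oct4-GFP-H-ESC and far lower in NPC(GFP-). In NPC(GFP-) relative to Oct4-GFP-ESC the log2 ratio was -2.59 for Psmb8 and -2.44 for Psmb9, and under the other scalings it ran from -2.14 to -2.61 and from -1.76 to -2.64.

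Psmb10 encodes the remaining immunoproteasome subunit, which replaces Psmb7, and lies outside the MHC on chromosome 8. It had 6.40 FPKM in DR-ESC, 1.75 in NPC(GFP-), 10.3 in Oct4-GFP-H-ESC and 24.3 in Oct4-GFP-ESC. It thus shared the order of Psmb8 and Psmb9 at both ends, with a log2 ratio of -3.20 in NPC(GFP-) relative to Oct4-GFP-ESC and -1.77 in DR-ESC relative to Oct4-GFP-ESC. The activator subunits Psme1 and Psme2, which also respond to interferon, stayed abundant. Psme1 had 72.8 FPKM in DR-ESC, 37.0 in NPC(GFP-), 57.0 in Oct4-GFP-H-ESC and 105 in Oct4-GFP-ESC. Psme2 had 74.8 FPKM in DR-ESC, 43.5 in NPC(GFP-), 56.5 in Oct4-GFP-H-ESC and 114 in Oct4-GFP-ESC.

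Of the 6 listed partners of the immunoproteasome, 0 were higher and 2 lower in DR-ESC relative to Oct4-GFP-ESC, where 12.2% of all genes were lower, and 5 were lower in NPC(GFP-) relative to Oct4-GFP-ESC, where 25.6% were. Under each other scaling 1 of the 6 was lower in DR-ESC. In NPC(GFP-) 2 were lower with upper-quartile scaling or the median ratio set to 0, and 1 with equal sums or the trend removed. The constitutive core was lower in these comparisons as well, and its counts come before the ratios to it. Of 13 constitutive core genes, 10 were lower in DR-ESC relative to Oct4-GFP-ESC (median -1.14) and 11 in NPC(GFP-) relative to Oct4-GFP-ESC (median -1.28). Those counts depended on scaling: 0 of 13 were lower in DR-ESC under each other scaling, and in NPC(GFP-) 3 were lower with the median ratio set to 0, 5 with upper-quartile scaling, and 0 with equal sums or the trend removed.

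Psmb8 was 1.14% of the merged row of Mir686 and Psmb5 in DR-ESC, 0.0727% in NPC(GFP-), 0.834% in Oct4-GFP-H-ESC and 1.60% in Oct4-GFP-ESC. Psmb9 was 3.68% of Psmb6 in DR-ESC, 0.620% in NPC(GFP-), 2.96% in Oct4-GFP-H-ESC and 2.51% in Oct4-GFP-ESC. Psmb10 was 3.68% of Psmb7 in DR-ESC, 0.988% in NPC(GFP-), 4.49% in Oct4-GFP-H-ESC and 5.82% in Oct4-GFP-ESC. RNA of the immunoproteasome subunits was therefore a small fraction of that of their counterparts everywhere, and by far the smallest in NPC(GFP-). Against its counterpart, Psmb9 was highest in DR-ESC, while Psmb8 and Psmb10 were highest in Oct4-GFP-ESC.

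**Figure D3:**
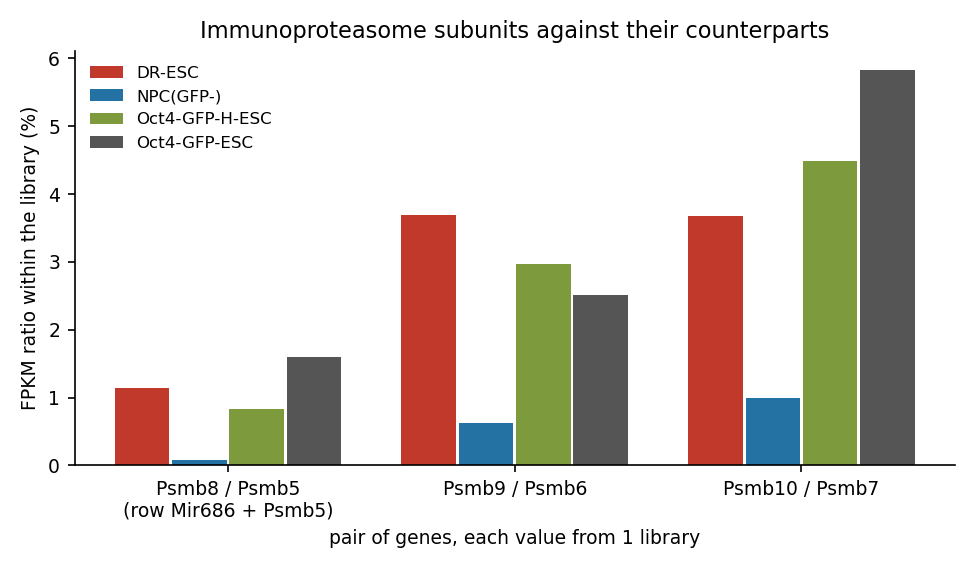
FPKM of each immunoproteasome subunit as a percent of its constitutive counterpart in the same library; each bar is 1 library and there are no error bars. NPC(GFP-) has the lowest bar of each group, at 0.0727%, 0.620% and 0.988%, and no bar exceeds 5.82%.

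Psmb9, Tap1, Psmb8 and Tap2 lie side by side within 34292 bases of the MHC, in this order. The gaps between them are 225, 969 and 3024 bases. In DR-ESC their levels along the chromosome were 6.00, 4.56, 1.81 and 2.61 FPKM, and in Oct4-GFP-H-ESC they were 6.46, 3.85, 1.59 and 2.37 FPKM, so that these 2 libraries had nearly the same profile. In NPC(GFP-) the levels were 0.825, 6.74, 0.0692 and 1.17 FPKM, with Tap1 alone standing out. Tap1 was 0.760 times Psmb9 in DR-ESC, 8.17 times in NPC(GFP-), 0.595 times in Oct4-GFP-H-ESC and 0.400 times in Oct4-GFP-ESC. It was 2.52 times Psmb8 in DR-ESC, 97.3 times in NPC(GFP-), 2.42 times in Oct4-GFP-H-ESC and 0.659 times in Oct4-GFP-ESC. As deposited, the 2 genes that start from the 225 bases printed above had opposite orders over the 4 libraries, with Tap1 highest and Psmb9 lowest in NPC(GFP-). With equal sums the log2 ratio of Psmb9 relative to Oct4-GFP-ESC was 0.19 in DR-ESC and 0.16 in Oct4-GFP-H-ESC. Psmb9 was then still lowest in NPC(GFP-), but the rest of its order was no longer opposite to that of Tap1. The number of reads behind the Psmb8 value of 0.0692 FPKM is unknown, and whether the libraries keep strand is not stated.

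**Figure D4:**
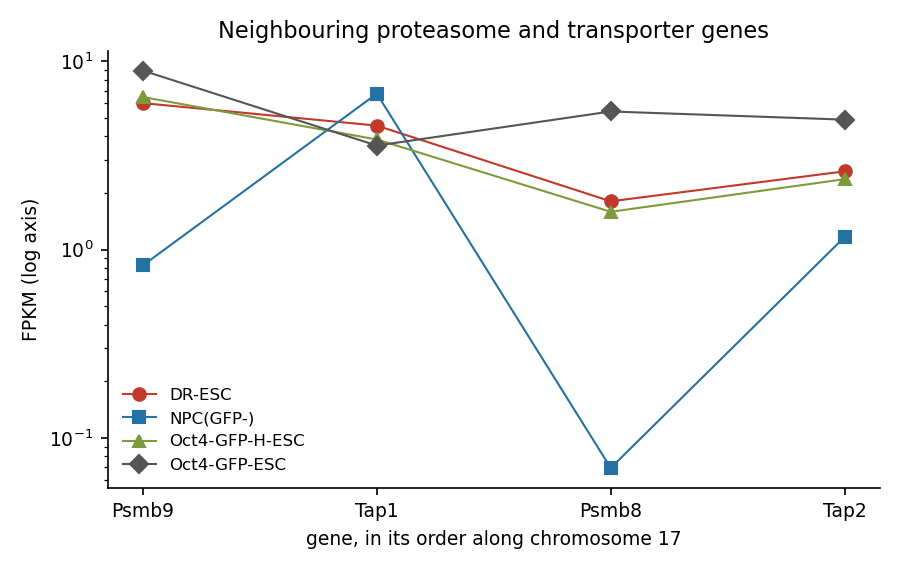
FPKM (log axis) of Psmb9, Tap1, Psmb8 and Tap2 in their order along chromosome 17, equally spaced and not to scale; lines join the values of 1 library. The NPC(GFP-) line peaks at Tap1 (6.74 FPKM) and is the lowest line at the other 3 genes, while the DR-ESC and Oct4-GFP-H-ESC lines nearly coincide.

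The genes were next counted in each comparison, beside all genes. DR-ESC relative to Oct4-GFP-ESC asks how cells that kept the reporter through differentiation differ from their line of origin. Of the 7 genes 0 were higher in DR-ESC, where 2.95% of 12260 genes were, and B2m and Psmb8 were lower, where 12.2% were. Their median log2 ratio was -0.57, against -0.29 for all genes. The 2 lower genes are 2 of 7, above the share of all genes, but Psmb8 (-1.19) was between -0.60 and -0.89 with equal sums, upper-quartile scaling, the median ratio set to 0 or a pseudocount of 5. In the same comparison 14 of 18 fibroblast markers were lower in DR-ESC.

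DR-ESC relative to Oct4-GFP-H-ESC compares them with sorted cells of that line, which had nearly the same fibroblast marker sum as the unsorted line. Here 0 of 7 were higher in DR-ESC (3.65% of 12128 genes) and B2m alone was lower (3.91%). The other 6 genes lay within 0.64 of 0 on the log2 scale, and the median of 0.10 stood against -0.0044 for all genes. In this comparison 15 of 18 fibroblast markers were lower in DR-ESC.

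DR-ESC relative to NPC(GFP-) compares cells that kept the reporter with cells that lost it. Psmb8 (1.39) and Psmb9 (1.94) were higher in DR-ESC, 2 of the 6 genes that could be scored, where 11.6% of 12649 genes were, and 0 were lower, where 14.2% were. The median was 0.68, against -0.05 for all genes. Psmb8 and Psmb9 reached the minimum in this comparison through DR-ESC alone. Tap1 (-0.48) and B2m (-0.51) had the opposite sign, and H2-K1 (0.62) and Tap2 (0.73) were higher in DR-ESC by less than 2-fold. Of the 10 fibroblast markers that could be compared, 2 were higher and 4 lower in DR-ESC.

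Oct4-GFP-H-ESC relative to Oct4-GFP-ESC sets cells sorted for a high reporter signal beside the unsorted line. Psmb8 was lower in the sorted cells (-1.31), 1 of 7, where 2.67% of 12003 genes were lower, and 0 were higher, where 0.983% were. The median was -0.61, against -0.31 for all genes. Tap1 alone had a positive ratio, 0.08, while B2m and Psmb9 were also slightly positive with equal sums (0.03 and 0.16). None of the 18 fibroblast markers was higher and none lower by 2-fold.

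NPC(GFP-) relative to Oct4-GFP-ESC asks how the differentiated cells differ from the line. Psmb8, Psmb9, B2m and Tap2 were lower in NPC(GFP-), 4 of 7, where 25.6% of 12848 genes were, and 0 were higher, where 15.7% were. The median was -1.45, against -0.25 for all genes, and it fell short of the 2-fold size with equal sums and with the abundance trend removed. H2-K1 (-0.76) and H2-T23 (-0.64) were lower by less than 2-fold, and the sign of H2-K1 turned with equal sums (0.16). Of 18 fibroblast markers 12 were lower in NPC(GFP-) and 1 was higher.

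NPC(GFP-) relative to Oct4-GFP-H-ESC asks the same against sorted cells of the line. Psmb9 (-2.03), Psmb8 (-1.28) and B2m (-1.02) were lower in NPC(GFP-), 3 of 7, where 16.2% of 12864 genes were, and 0 were higher, where 18.5% were. The median was -0.64, against 0.03 for all genes. B2m was just past the size and fell short of it with the median ratio set to 0 (-0.94), with equal sums (-0.69) and with the trend removed (-0.77). H2-K1 was level, at 0.02. Of 18 fibroblast markers 13 were lower in NPC(GFP-).

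**Figure D5:**
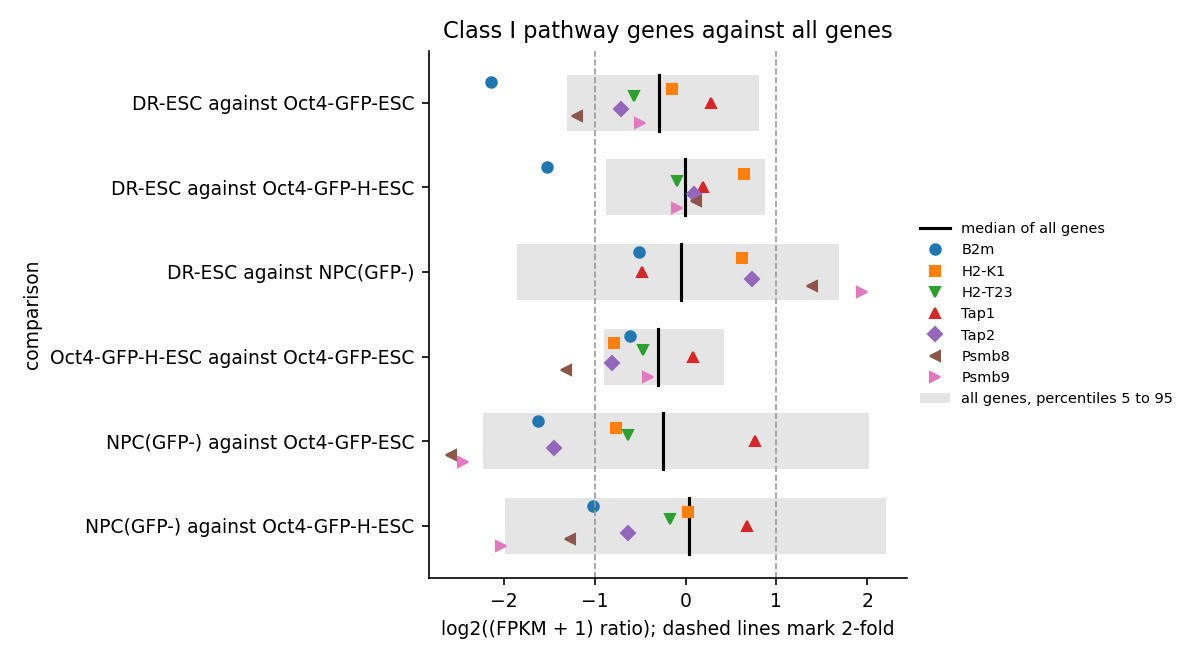
Log2((FPKM + 1) ratio) of the 7 genes in the 6 comparisons, 1 point per gene; the grey band spans percentiles 5 to 95 of all genes, the black line is their median, and dashed lines mark 2-fold. B2m lies left of the band in both comparisons of DR-ESC with the undifferentiated line (-2.14 and -1.53), and Psmb8 and Psmb9 lie past its left end in NPC(GFP-) relative to Oct4-GFP-ESC (-2.59 and -2.44).

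Factors known to act on class I promoters were also read. Nlrc5, the class I transactivator, was not analysed here. Irf1, an interferon-induced factor that binds the IRF element, had 23.3 FPKM in DR-ESC, 2.46 in NPC(GFP-), 13.6 in Oct4-GFP-H-ESC and 20.6 in Oct4-GFP-ESC. It was far lower in NPC(GFP-), with a log2 ratio of -2.64 against Oct4-GFP-ESC and 2.81 in DR-ESC relative to NPC(GFP-). Irf2, which binds the same element, had 0.566 FPKM in DR-ESC, 7.14 in NPC(GFP-), 0.674 in Oct4-GFP-H-ESC and 0.934 in Oct4-GFP-ESC, so that NPC(GFP-) alone exceeded 1 FPKM. Tap1 was highest in the library in which Irf1 was lowest and Irf2 highest. In DR-ESC, Tap1 was above its Oct4-GFP-ESC level (4.56 against 3.57 FPKM), while Irf2 was below its own. Whether either factor acts on Tap1 was not tested.

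Rfx5, a subunit of the factor on the X1 box, had 4.34 FPKM in DR-ESC, 3.42 in NPC(GFP-), 2.94 in Oct4-GFP-H-ESC and 2.63 in Oct4-GFP-ESC. Nfkb1, an NF-kB subunit, had 12.5 FPKM in DR-ESC, 8.001 in NPC(GFP-), 18.6 in Oct4-GFP-H-ESC and 22.5 in Oct4-GFP-ESC. In NPC(GFP-) relative to Oct4-GFP-ESC, Irf2 was higher and Irf1, Atf1 and Nfkb1 were lower, of 13 compared, where 15.7% of all genes were higher and 25.6% lower. The balance depended on scaling, with 2 higher and 2 lower once the median ratio was set to 0, and 5 higher and 1 lower with equal sums.

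Receptors and kinases of the interferon pathway were present in NPC(GFP-). Ifngr2, a chain of the interferon gamma receptor, had 1.62 FPKM in DR-ESC, 7.84 in NPC(GFP-), 2.20 in Oct4-GFP-H-ESC and 3.77 in Oct4-GFP-ESC. Jak2, the kinase that binds it, had 1.60 FPKM in DR-ESC, 5.74 in NPC(GFP-), 1.49 in Oct4-GFP-H-ESC and 1.35 in Oct4-GFP-ESC. Both were highest in NPC(GFP-). Of 10 genes of this list, 1 was higher (Jak2) and 1 lower (Socs1) in NPC(GFP-) relative to Oct4-GFP-ESC, where 15.7% of all genes were higher and 25.6% lower. With upper-quartile scaling or the median ratio set to 0, 2 were higher and 1 lower, and with equal sums 5 were higher and 1 lower.

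Genes that respond to interferon were low in NPC(GFP-) nearly throughout. Of 35 listed genes 20 have a row. In NPC(GFP-) relative to Oct4-GFP-ESC 18 of 19 were lower, where 25.6% of all genes were, and 0 higher, where 15.7% were. Their median was -2.54, and 14 to 17 of 19 were lower under the other scalings. Ifitm1, a membrane protein that blocks viral entry, had 71.8 FPKM in DR-ESC, 0.643 in NPC(GFP-), 34.4 in Oct4-GFP-H-ESC and 142 in Oct4-GFP-ESC. Bst2 (tetherin), which holds viruses at the cell surface, had 53.5 FPKM in DR-ESC, 4.55 in NPC(GFP-), 93.9 in Oct4-GFP-H-ESC and 149 in Oct4-GFP-ESC. None of the 19 had a positive log2 ratio here, while that of Tap1 was 0.76.

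In DR-ESC relative to NPC(GFP-), 13 of the 20 could be scored and 13 were higher in DR-ESC, where 11.6% of all genes were. Their median was 1.58. A gene near 0 in NPC(GFP-) could be scored only through DR-ESC, and the 7 others were under 1 FPKM in both. Against Oct4-GFP-ESC, 7 of 19 were lower in DR-ESC, where 12.2% of all genes were, and 0 higher, where 2.95% were. The median was -0.92, and 4 to 6 were lower under the other scalings. Isg15, a ubiquitin-like protein, led with 0.383 FPKM in DR-ESC, 0.0643 in NPC(GFP-), 4.17 in Oct4-GFP-H-ESC and 5.92 in Oct4-GFP-ESC. Oas1a, a sensor of double-stranded RNA, had 0.647 FPKM in DR-ESC, 0.104 in NPC(GFP-), 4.20 in Oct4-GFP-H-ESC and 5.42 in Oct4-GFP-ESC. Both were low in the 2 libraries with the lower sums of fibroblast markers, and the part of fibroblasts was not tested. Gbp2 had 1.68 FPKM in DR-ESC, 0.0468 in NPC(GFP-), 3.61 in Oct4-GFP-H-ESC and 9.31 in Oct4-GFP-ESC, so it was already lower in Oct4-GFP-H-ESC. In Oct4-GFP-H-ESC relative to Oct4-GFP-ESC, 4 of 20 were lower and 1 higher, where 2.67% and 0.983% of all genes were. Under each other scaling 1 was lower and 1 higher. Psmb10 is also in this list.

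MHC genes outside the pathway give the setting on the chromosome. Of 23 neighbours with a row, 1 was higher and 6 lower in NPC(GFP-) relative to Oct4-GFP-ESC, with a median of -0.44, against -1.45 for the 7 genes. These counts are near the shares of all genes, or below them, at 15.7% higher and 25.6% lower. They turned with scaling, to 6 higher and 1 lower with equal sums (median 0.52) and 4 higher and 2 lower with the trend removed (median 0.23). In DR-ESC relative to Oct4-GFP-ESC 0 of 21 were higher and 6 lower, with a median of -0.69, where 12.2% of all genes were lower. Under each other scaling 0 of the 21 were lower, and the median ran from -0.26 to 0.08. Wdr46, a nucleolar protein, was the lowest of them in both comparisons (-1.26 in DR-ESC and -2.09 in NPC(GFP-)).

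The 5 genes most like the median profile of the 7 have no known role in antigen presentation. Over the 4 libraries and 9102 genes that reach 5 FPKM in some library, likeness was the distance between centred log2(FPKM + 1) values. Cks2 (0.103), Cdk5rap3 (0.104), Pold2 (0.106), Apitd1 (0.113) and Paics (0.113) were nearest. Cks2 binds cyclin-dependent kinases, and had 135 FPKM in DR-ESC, 91.1 in NPC(GFP-), 133 in Oct4-GFP-H-ESC and 225 in Oct4-GFP-ESC. Of the 7 genes themselves Tap2 (0.170) was the closest to that profile, and the distances of H2-T23 (0.485), H2-K1 (0.545), Psmb8 (0.944), Psmb9 (1.22), B2m (1.25) and Tap1 (1.45) were larger.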

How the data were processed

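The authors deposited a table of log2 values per gene for 4 poly(A) RNA libraries, described in its name as normalised FPKM. Raised as powers of 2 and lessened by 1, 99.7% of those above 0 have no more than 6 significant digits (86.7% if 1 is not taken off), so the deposited log2 values were read as log2(FPKM + 1). Per the submitters' processing notes the tools include CASAVA 1.8, TopHat2 2.0.9, HTSeq, DESeq2 and Bowtie 0.12.8 with build mm10; for the origin of FPKM and any scaling between libraries, the answer is not given in the sources used here. Of 13199 rows, 19 with a date for a symbol were left out. Every remaining row exceeds 1 FPKM somewhere, and genes under this level in all 4 libraries are not analysed here. Some genes share a merged row.

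Log2((FPKM + 1) ratio) was computed for 6 comparisons, where either library had 1 FPKM or more, with a 2-fold size and no test. The 9 genes and all gene lists were chosen with earlier results of these data known. Genes named besides the 9 are the loading, proteasome and regulator genes set by name, and of every other list at most the 4 with the largest ratio that reach 5 FPKM. Lnpep, Irf2, Atf1, Nfkb1, Cd1d1, Socs1, Itgam, H2-K2, the H2-DM genes and the row of H2-T22 and H2-T9 were named after their values were seen. The values of 1 listed regulator are not reported here. Alternatives were pseudocounts of 0.1 and 5, no minimum or 5 FPKM, a 4-fold size, scaling to a median ratio of 0 (genes of 5 FPKM or more in both), to upper quartiles or to equal sums, removal of the abundance trend and the mean. Start sites, sequences and coordinates are from RefSeq, GRCm38.p6. Python 3.11.15, numpy 2.4.6, pandas 2.3.3 and matplotlib 3.10.9 were used. The procedure was also run on simulated data, with 4-fold changes planted in genes with a mean of 5 FPKM or more. That run did not cover lower genes, such as H2-T23 and Tap2, or the real spread between replicates.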

Additional observations from a re-analysis of the deposited data

How the results depend on the processing

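Of the medians of the 7 genes, 64 values under alternatives kept their direction and side of the 2-fold size, 4 changed sign without a call and 4 fell short of the size. In DR-ESC relative to Oct4-GFP-H-ESC the median of 0.10 became -0.092 with a minimum of 5 FPKM, which leaves 3 genes, -0.016 with the abundance trend removed, -0.095 as a mean, and -0.092 with both merged rows added, an alternative chosen after seeing the data. In NPC(GFP-) relative to Oct4-GFP-ESC the median of -1.45 became -0.68 with a pseudocount of 5, -0.66 with equal sums and -0.89 with the trend removed, and -1.45 is short of a 4-fold size. Apart from the construction of each alternative, the cause was not tested.

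Among counts of higher or lower genes under alternatives, 110 stayed within 1.5 times and 22 moved. The lower count of DR-ESC relative to Oct4-GFP-ESC, 2, was 1 with a pseudocount of 5, a 4-fold size, equal sums, upper-quartile scaling and the median ratio set to 0. The higher count of DR-ESC relative to NPC(GFP-), 2, was 0 with a pseudocount of 5 or a 4-fold size and 1 with a minimum of 5 FPKM or the trend removed. The lower count of NPC(GFP-) relative to Oct4-GFP-ESC, 4, was 2 with a 4-fold size or equal sums, and that of NPC(GFP-) relative to Oct4-GFP-H-ESC, 3, was 0 with a pseudocount of 5 and 1 with a 4-fold size or the trend removed. Psmb8 in Oct4-GFP-H-ESC relative to Oct4-GFP-ESC fell short of the size with a pseudocount of 5, a 4-fold size and equal sums. Equal sums raised the median of all genes by the most, to 0.39 in DR-ESC relative to Oct4-GFP-ESC and 0.61 in NPC(GFP-) relative to Oct4-GFP-ESC. Depth is unknown, so values under 1 FPKM carry an unknown error.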

Other observations

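Class II presentation was scarcely measured. Of 11 listed class II genes 3 have a row, all of the peptide exchange protein H2-M. H2-DMa had 1.72 FPKM in DR-ESC, 2.21 in NPC(GFP-), 2.96 in Oct4-GFP-H-ESC and 3.03 in Oct4-GFP-ESC. H2-DMb1 had 0.960 FPKM in DR-ESC, 0.0979 in NPC(GFP-), 1.06 in Oct4-GFP-H-ESC and 1.48 in Oct4-GFP-ESC. H2-DMb2 was listed at 0 in NPC(GFP-), against 1.26 FPKM in Oct4-GFP-ESC.

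Of 13 listed ligands of natural killer cell and phagocyte receptors 2 have a row. Cd47, the signal that spares a cell from phagocytosis, had 5.69 FPKM in DR-ESC, 11.4 in NPC(GFP-), 2.33 in Oct4-GFP-H-ESC and 3.35 in Oct4-GFP-ESC, with a log2 ratio of 1.51 in NPC(GFP-) relative to Oct4-GFP-ESC. Pvr, a ligand of activating and inhibitory receptors, had 12.8 FPKM in DR-ESC, 4.34 in NPC(GFP-), 11.7 in Oct4-GFP-H-ESC and 9.58 in Oct4-GFP-ESC. H2-K2, a class I gene near H2-K1, had 1.67 FPKM in DR-ESC, 0.148 in NPC(GFP-), 0.446 in Oct4-GFP-H-ESC and 0.573 in Oct4-GFP-ESC, so that it was highest in DR-ESC.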
